A study of Mus musculus with 3 samples.

Results

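Solute carrier genes encode membrane proteins that move nutrients, ions, metals and metabolites across the cell surface and across the membranes of mitochondria, lysosomes and the Golgi apparatus. Of the 31053 genes in the deposited matrices, 375 had a symbol made of Slc and a number, and 266 of them had at least 1 count. The 116 described here were chosen by their measured level: their summed counts reached 5 CPM (the count of a gene per 1000000 counts) in at least 1 of 3 single-cell libraries of mouse CD8 T cells. A level above this threshold is therefore no finding. Just inside the threshold, Slc30a1 peaked at 5.41 CPM, Slc27a4 at 5.21 CPM and Slc39a13 at 5.12 CPM. Just outside it, Slc25a10 peaked at 4.82 CPM, Slc36a1 at 4.62 CPM and Slc16a10 at 4.43 CPM.

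T cells take up glucose through Slc2a carriers, amino acids through Slc38a, Slc1a5 and the Slc7a chains that pair with Slc3a2, and export lactate through Slc16a carriers. Inside the cell, Slc25a carriers exchange ADP, ATP, phosphate, nucleotides and substrates of the citrate cycle across the inner mitochondrial membrane. Receptor triggering and growth are known to raise several surface carriers, whereas resting memory cells are known for low nutrient uptake and reliance on mitochondrial respiration.

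The cells were labelled as P14 CD8 T cells, whose transgenic receptor recognises GP33, a peptide of the lymphocytic choriomeningitis virus (LCMV), from C57BL/6 animals labelled WT. For the TdLN group (tumour-draining lymph node) and the PBMC group (blood), naive P14 cells from TCF-1-GFP reporter mice had been transferred into mice on D8 after injection of B16.Gp, the B16.F10 melanoma line made to express the LCMV glycoprotein. Both were taken at 16 days from the transfer, with a sort for CD8 cells positive for CD45.1 and CD44. The memory group was taken 200 days into an acute LCMV infection, with a sort for CD8 cells that were CD45.1+ CD44+ KLRG1- CD127+ CD62L+. The number of animals per library, their age and the tissue of the memory cells are not given in the sources used here, and the tumour-infiltrating library was not analysed here. With 1 library per group there is no test between groups, and tissue, day, gate and preparation cannot be told apart. Intervals given in square brackets are 95% intervals that cover counting error only.

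The filtered T cells numbered 6085 from TdLN, 5627 from PBMC and 6899 from memory, and held 68635412, 48917702 and 69658697 counts, with medians of 9745, 7132 and 10005 counts per cell. Cells in clusters of other types (180, 25 and 104) were left out. Between 11 and 17 cell barcodes were shared by any pair of libraries. The P14 receptor uses the segment Trbv13-3. Other segments took 10.9% [9.57–12.3] of the beta chain V counts of TdLN, 31.2% [29.3–33.3] of those of PBMC and 4.51% [3.97–5.09] of those of memory. Cells counted with another segment may not be P14 cells, so that PBMC values in particular may describe a mixture. The cycling list summed to 1367, 470.0 and 415 CPM, and a list of dissociation-induced AP-1 genes to 2605, 1347 and 946 CPM. Summed B cell markers were at 260, 105 and 114 CPM, macrophage markers at 87.0, 101 and 91.4 CPM, and erythroid or platelet markers at 4.40, 38.6 and 1.77 CPM. The part of these differences in the results was not tested.

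Together the 116 genes took 3324 CPM in TdLN, 2601 CPM in PBMC and 2556 CPM in memory, or 0.332%, 0.260% and 0.256% of all counts. Most were scarce: 41 stayed under 10 CPM in all 3 libraries, 34 reached 20 CPM and 7 reached 100 CPM. Slc25a3, Slc25a4 and Slc25a5 alone made up 33.7%, 31.4% and 28.9% of the summed level. Counts were taken at the 3' end of transcripts, 1 per molecule, so levels in CPM need no correction for transcript length. CPM is a share of the RNA counted in a library, so that more cells in a state and more RNA per cell cannot be told apart in the library sums.

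**Figure D1:**
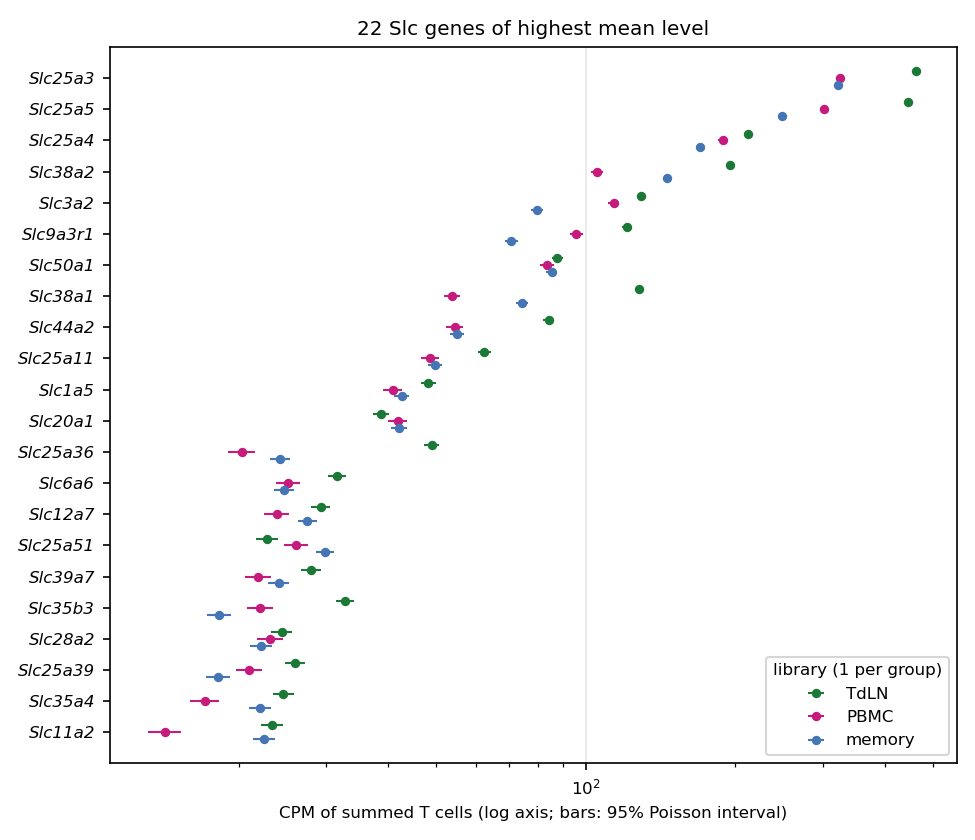
The 22 solute carrier genes of highest mean level are listed by row, with their level in CPM of the summed T cells on a logarithmic axis. Each point is 1 library (TdLN, PBMC or memory) and bars are exact Poisson 95% intervals; Slc25a3 and Slc25a5 lead in all 3 libraries, and the 3 points of most genes lie within 2-fold of each other.

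Few of these genes differed by 2-fold between libraries. Compared with memory, TdLN had 4 of 116 genes that were 2-fold higher or more, against 5.48% of the 8539 genes that reached 5 CPM in a library, and 3 were at least 2-fold lower, against 3.12%. In PBMC over memory, 3 were higher, against 3.24% of all genes, and 0 were lower, against 1.63%. In TdLN over PBMC, 5 were higher, against 4.18%, and 2 were lower, against 2.67%. The shares of solute carrier genes past 2-fold were thus near the background in every library comparison. Both comparisons with memory share that library, and those with TdLN or PBMC share those libraries too. In cells whose beta chain V counts were all Trbv13-3 (1410 TdLN, 957 PBMC and 2988 memory cells), 5 genes were higher and 3 lower in TdLN over memory, beside 5.52% and 3.31% of all genes. There were 4 higher and 3 lower in PBMC over memory, beside 2.63% and 3.64%. In TdLN over PBMC 7 were higher and 0 lower, beside 4.86% and 1.76%.

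The median log2 ratio of the 116 genes was 0.14 in TdLN over memory, beside 0.13 over all genes compared. It was -0.04 beside 0.00 in PBMC over memory, and 0.19 beside 0.14 in TdLN over PBMC. The direction of small differences depended on the scaling. By CPM, 78 of 116 had a ratio above 1 in TdLN over memory and 84 of 116 in TdLN over PBMC. With TMM factors, which set the bulk of genes equal, these counts were 59 and 66, and the median of all genes in TdLN over memory moved from 0.13 to -0.01. In PBMC over memory, 51 of 116 were above 1 under both scalings. How many of all genes lay above 1 was not counted. These counts, and those by class or state below, therefore have no background beside them.

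**Figure D2:**
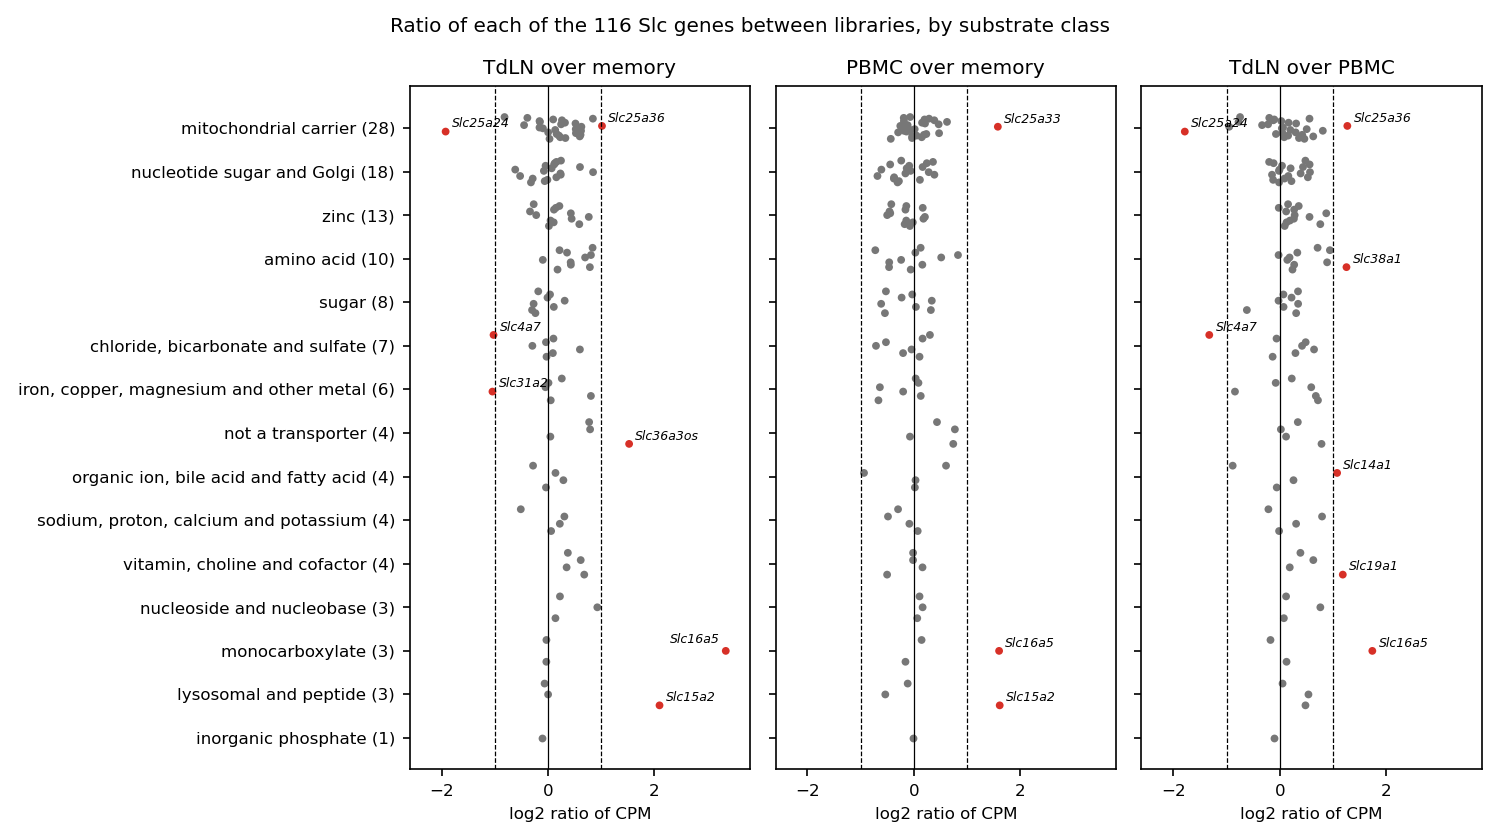
Log2 ratios of the 116 genes are shown by transport class in 3 panels (TdLN over memory, PBMC over memory, TdLN over PBMC), 1 point per gene. Dashed lines mark 2-fold and red points lie past it: 4 higher and 3 lower in TdLN over memory, 3 and 0 in PBMC over memory, 5 and 2 in TdLN over PBMC.

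Mitochondrial carriers of the SLC25 family were the largest class, with 28 genes. The family name is used as the class here, although Slc25a17 sits in peroxisomes. Their summed level was 1501 CPM in TdLN, 1168 CPM in PBMC and 1074 CPM in memory, and 20 of 28 were above 1 in TdLN over memory (17 of 28 with TMM factors). Slc25a3, the phosphate carrier that supplies ATP synthase (chr10:91116574-91124059, GRCm38, minus strand), was at 462 CPM in TdLN, 326 CPM in PBMC and 322 CPM in memory. TdLN stood above the other libraries, which lay within 1.01 [0.990–1.03] of each other, and the ratio of TdLN to memory was 1.44 [1.41–1.46].

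Slc25a5, an ADP/ATP translocase common in dividing cells (chrX:36795651-36798807, plus strand), was at 445 CPM in TdLN, 302 CPM in PBMC and 248 CPM in memory. All 3 libraries were apart, with TdLN over memory at 1.79 [1.76–1.83] and PBMC over memory at 1.22 [1.19–1.25]. Without the cycling-like cells the log2 ratio of TdLN to memory was 0.61 in place of 0.84. The related translocase Slc25a4, known from heart and muscle, had a narrower range, with 212, 189 and 170.0 CPM. How reads shared by these 2 genes and their processed copies were treated is not given in the sources used here.

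Slc25a36 and Slc25a33 both carry pyrimidine nucleotides into mitochondria, yet their order across libraries differed. Slc25a36 (chr9:97074961-97111157, minus strand) was at 48.9 CPM in TdLN, 20.3 CPM in PBMC and 24.2 CPM in memory. TdLN was the high library, at 2.02 [1.90–2.14] times memory and 2.41 [2.25–2.59] times PBMC, and at 1.84 times memory with TMM factors. Slc25a33 (chr4:149744036-149774277, minus strand) was at 7.65 CPM in TdLN, 14.8 CPM in PBMC and 4.95 CPM in memory. Here PBMC was the high library, at 2.98 [2.62–3.40] times memory.

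Slc25a24, a calcium-regulated carrier of ATP-Mg and phosphate (chr3:109123149-109168457, plus strand), was at 2.94 CPM in TdLN, 10.1 CPM in PBMC and 11.2 CPM in memory. TdLN was the low library, at 0.264 [0.225–0.308] of memory and 0.290 [0.245–0.343] of PBMC. The PBMC level rested on the effector T-like clusters described further on: without them the log2 ratio of PBMC to memory was -1.18, and that of TdLN to PBMC was -0.73. Among Trbv13-3 cells alone the latter was -0.44. Slc25a51, the NAD carrier, was lowest in TdLN too, with 22.8, 26.1 and 29.8 CPM, but its ratio of 0.764 [0.715–0.816] to memory was within 2-fold. Slc25a40, a relative of the glutathione carrier Slc25a39, was highest in PBMC with 22.1 CPM beside 12.9 in TdLN and 14.3 in memory.

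Amino acid carriers (10 genes) summed to 613 CPM in TdLN, 401 CPM in PBMC and 431 CPM in memory. In TdLN over memory 9 of 10 were above 1, as were 9 of 10 in TdLN over PBMC, by CPM and with TMM factors. By CPM the class median log2 ratios were 0.43 and 0.30, beside 0.13 and 0.14 over all genes. The sodium-coupled glutamine carriers led the class. Slc38a2 (chr15:96687392-96699730, minus strand) was at 195 CPM in TdLN, 106 CPM in PBMC and 146 CPM in memory, and its neighbour Slc38a1 (chr15:96571418-96642913, minus strand) at 128, 53.8 and 74.3 CPM. Both genes had the same order, TdLN above memory above PBMC. Slc38a1 differed most, with TdLN at 2.38 [2.28–2.49] times PBMC and 1.73 [1.67–1.79] times memory. Slc38a2 had ratios of 1.85 [1.79–1.91] and 1.34 [1.31–1.38].

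Slc3a2, the CD98 heavy chain that brings Slc7a chains to the surface (chr19:8706882-8723369, minus strand), was at 129 CPM in TdLN, 114 CPM in PBMC and 79.7 CPM in memory. Here memory was the low library, at ratios of 1.62 [1.57–1.68] for TdLN and 1.43 [1.38–1.48] for PBMC. Its usual partner Slc7a5, the large neutral amino acid chain, was under the threshold, with 3.34, 1.23 and 2.57 CPM. Slc7a6, another partner, had 8.70, 5.31 and 4.87 CPM. Slc1a5, which exchanges glutamine, serine and alanine, was nearly level, with 48.2, 40.8 and 42.6 CPM. Slc7a1, the arginine and lysine carrier, was lowest in PBMC, with 22.2, 11.6 and 19.1 CPM. Slc43a2, a neutral amino acid uniporter, was lowest in memory, with 12.7, 12.9 and 7.26 CPM.

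Sugar carriers (8 genes) summed to 152, 148 and 156 CPM and lay close together across libraries. Slc2a1 (GLUT1; chr4:119108711-119137983, plus strand) was at 11.9 CPM in TdLN, 9.63 CPM in PBMC and 14.04 CPM in memory. Slc2a3 (GLUT3; chr6:122727809-122801640, minus strand), the carrier of higher glucose affinity, was at 12.5, 19.2 and 15.4 CPM. Slc2a1 was lowest in PBMC and Slc2a3 highest there. The ratio of TdLN to PBMC for Slc2a3 was 0.651 [0.593–0.715], a log2 value of -0.62. Without the effector T-like clusters this was 0.17, and among Trbv13-3 cells alone 0.27, so that its direction turned in both. Slc50a1, the SWEET1 sugar carrier, was the most abundant of the class and level, with 87.6, 83.5 and 85.3 CPM.

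Among the monocarboxylate carriers, Slc16a1 (MCT1; chr3:104638668-104658462, plus strand), which moves lactate and pyruvate, was level, with 18.4, 16.9 and 18.8 CPM. Slc16a6 was level as well, with 14.1, 15.9 and 14.4 CPM. Slc16a5 (chr11:115462474-115474398, plus strand), a family member with little known of its substrates, was at 6.69 CPM in TdLN, 2.003 CPM in PBMC and 0.660 CPM in memory. All 3 libraries were apart for Slc16a5, with TdLN at 10.1 [7.47–14.03] times memory and 3.34 [2.68–4.195] times PBMC, and PBMC at 3.03 [2.12–4.41] times memory. Among Trbv13-3 cells alone TdLN was at 2.01 times PBMC and PBMC at 5.92 times memory, and with equal weight per cell TdLN was at 5.29 times PBMC. Slc16a3 (MCT4), the lactate exporter of glycolytic cells, was under the threshold, with 0.466, 1.10 and 0.675 CPM.

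Vitamin, choline and cofactor carriers (4 genes) were all above 1 in TdLN over memory and in TdLN over PBMC under both scalings, and summed to 113, 73.9 and 75.9 CPM. Slc44a2, a choline transporter-like protein, made up most of that, with 84.2 CPM in TdLN, 54.4 CPM in PBMC and 55.0 CPM in memory. Slc19a1, the reduced folate carrier (chr10:77032241-77061002, plus strand), was at 10.1, 4.46 and 6.32 CPM. TdLN was the high library for both genes, and Slc19a1 differed most, at 2.27 [1.95–2.66] times PBMC. That fell just under 2-fold without the 5% of cells with most counts (1.94) and among Trbv13-3 cells alone (1.99). Of the nucleoside carriers (3 genes), Slc29a1 (ENT1, the equilibrative carrier; chr17:45585200-45599606, minus strand) was at 21.3, 12.5 and 11.2 CPM, with TdLN at 1.90 [1.74–2.08] times memory. The concentrative carrier Slc28a2 was level, with 24.4, 23.1 and 22.2 CPM.

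Ion carriers had few large differences. Slc4a7, a sodium and bicarbonate cotransporter (chr14:14702279-14799940, plus strand), was at 9.44 CPM in TdLN, 23.7 CPM in PBMC and 19.2 CPM in memory. TdLN was the low library, at 0.492 [0.447–0.541] of memory and 0.399 [0.362–0.440] of PBMC. Among Trbv13-3 cells alone the log2 ratio of TdLN to PBMC was -0.51 in place of -1.32, within 2-fold. The potassium and chloride cotransporter Slc12a7 differed little, with 29.3, 23.9 and 27.5 CPM. Slc20a1, the sodium-dependent phosphate importer (chr2:129198764-129211616, plus strand), was level, with 38.7, 41.8 and 42.0 CPM, but its log2 ratio of TdLN to PBMC was 0.60 among Trbv13-3 cells alone. The endosomal sodium and proton exchanger Slc9a9 was lowest in TdLN, with 14.6, 16.9 and 20.8 CPM.

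Zinc carriers comprise SLC39 proteins, which bring zinc into the cytosol, and SLC30 proteins, which move it out. Slc39a14, of the SLC39 family, was placed with the other metal carriers and is not in this class. The 13 genes of the class summed to 167 CPM in TdLN, 131 CPM in PBMC and 140.0 CPM in memory. In TdLN over PBMC 12 of 13 were above 1 (9 of 13 with TMM factors). Slc39a1 was at 22.4, 15.2 and 13.2 CPM and Slc30a5 at 22.9, 13.5 and 15.2 CPM, both highest in TdLN and within 2-fold. Slc39a7, which releases zinc from the endoplasmic reticulum and Golgi, was the most abundant, with 27.9, 21.8 and 24.1 CPM.

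Of the other metal carriers, Slc11a2, which imports ferrous iron (DMT1), was lowest in PBMC, with 23.3, 14.2 and 22.5 CPM. Slc31a1, the copper importer, was highest in TdLN, with 6.70, 4.19 and 3.83 CPM. Slc31a2, its relative on internal membranes, was lowest there, with 3.31, 5.93 and 6.82 CPM and a ratio of TdLN to memory of 0.485 [0.412–0.569]. Of its counts in the TdLN library, 9.56% came from cells outside the T cell clusters, which were left out of these values.

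The remaining transporters showed 2 further genes past 2-fold. Slc15a2, a proton-coupled peptide carrier (chr16:36750177-36784962, minus strand), was at 5.83 CPM in TdLN, 4.17 CPM in PBMC and 1.36 CPM in memory. Memory was the low library, at ratios of 4.27 [3.41–5.40] for TdLN and 3.06 [2.39–3.94] for PBMC. Slc14a1, a urea carrier, was lowest in PBMC, with 11.04, 5.23 and 10.0 CPM and TdLN at 2.11 [1.83–2.44] times PBMC, which was 1.93 with TMM factors and 1.92 with stricter cell filters. Nucleotide sugar carriers of the Golgi and their relatives (18 genes) summed to 216, 185 and 202 CPM. Slc35b3, a carrier of the sulfate donor PAPS, was highest in TdLN, with 32.8, 22.1 and 18.2 CPM. Slc35c1, the GDP-fucose carrier, was highest in memory, with 13.5, 13.6 and 20.7 CPM.

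4 genes carry an Slc symbol without being transporters and summed to 171, 139 and 104 CPM. Slc9a3r1 encodes the scaffold protein NHERF1 and was at 121 CPM in TdLN, 95.7 CPM in PBMC and 70.8 CPM in memory. Slc36a3os, named as the opposite strand of a carrier gene, was at 12.7, 7.36 and 4.41 CPM, with TdLN at 2.88 [2.52–3.29] times memory. It counts among the 4 genes past 2-fold there, beside Slc16a5, Slc15a2 and Slc25a36. Slc7a6os was lowest in memory, with 21.2, 20.9 and 12.3 CPM. Whether the counting used strand is not given in the sources used here, and reads shared by opposite-strand genes and their partners were not examined.

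The T cells of each library fell into clusters that had been made without solute carrier genes, most of them filled mainly by 1 library. Clusters were compared with the other T cells of the same library. These values are descriptions of cells from 1 library each. Depth differed between clusters: cycling-like cells had a median of 26050.5 counts, the effector T-like cells of PBMC 5103.

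The effector T-like clusters of PBMC, named for raised Gzma, Gzmb, Klrg1 and Cx3cr1, held 2355 cells, compared with the other 3272 T cells of that library. Of the solute carrier genes 10 were at least 2-fold higher, against 7.58% of all genes, and 3 at least 2-fold lower, against 3.65%. The median log2 ratio was 0.47 beside 0.39 over all genes. With TMM factors 4 genes stayed at least 2-fold higher, beside 3.33% of all genes, and 4 were lower, beside 6.39%. The other PBMC T cells had a median of 11257.5 counts per cell. In the effector T-like cells 65.1% [60.9–69.1] of beta chain V counts came from segments other than Trbv13-3, against 19.3% [17.4–21.4] in the other T cells. Between the 128 effector T-like and 829 other cells whose beta chain V counts were all Trbv13-3, 19 genes were at least 2-fold higher, beside 9.78% of all genes, and 2 lower, beside 3.22%. The part of depth in these values was not tested.

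The 4 genes that were at least 2-fold higher under both scalings were Slc25a24, Slc2a3, Slc20a1 and Slc39a13. Slc25a24 was at 24.0 CPM in effector T-like cells and 4.86 CPM in the others, a ratio of 4.93 [4.09–5.97]. This ratio was 3.75 with TMM factors and 3.61 when totals left out ribosomal protein and mitochondrial genes. It was 5.19 at clustering resolution 1.2 and 5.02 with each library clustered alone. At resolution 0.5, where the cluster of this name held 3055 PBMC cells, it was 9.21. Slc2a3 was at 40.4 against 11.1 CPM, a ratio of 3.64 [3.19–4.16]. Slc20a1 was at 80.8 against 26.9 CPM, a ratio of 3.01 [2.76–3.29]. RNA of a phosphate importer and of GLUT3 was thus higher in these cells, whereas Slc20a1 was level between the 3 libraries. Slc4a7 was at 41.3 against 16.9 CPM, a ratio of 2.45 [2.18–2.75], and passed 2-fold by CPM but not with TMM factors. Among Trbv13-3 cells alone the log2 ratios were 2.78 for Slc25a24, 1.82 for Slc2a3, 1.73 for Slc20a1 and 1.55 for Slc4a7, so that all 4 stayed past 2-fold. Genes past 2-fold by CPM only also included Slc48a1, a haem carrier, with 19.1 against 8.02 CPM, and Slc16a6, with 25.7 against 12.1 CPM. By CPM 101 of 116 genes had a ratio above 1, and 68 of 116 with TMM factors. The sugar carriers, with 8 of 8 and 6 of 8 and a summed level of 205 against 126 CPM, were near those shares.

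Slc11a2 was the most abundant of the lower genes, with 7.40 CPM in effector T-like cells against 16.8 CPM in the others and a ratio of 0.441 [0.353–0.545]. Among cells whose beta chain counts were all Trbv13-3 its log2 ratio was 0.08, near no difference. Only 128 effector T-like cells were in that set, and no intervals were computed for its ratios. Slc43a2 was at 7.17 against 15.1 CPM and Slc16a5, with 4 counts, at 0.296 against 2.66 CPM. Among Trbv13-3 cells alone their ratios were 0.588 and 0.574, so that none of the 3 lower genes stayed past 2-fold. In the 87 memory cells of the effector T-like clusters, Slc25a24 was at 35.1 CPM, Slc2a3 at 50.4 CPM and Slc20a1 at 85.5 CPM, each above its level in the memory library. The larger PBMC cluster of this name (2239 cells) had 26.2, 43.7 and 87.0 CPM, and the smaller one (116 cells) 9.67, 19.9 and 41.9 CPM. In the naive or memory-like cluster of PBMC, named for raised Ccr7 and Klf2, these 3 genes were at 1.55, 7.29 and 18.7 CPM. The PBMC cluster with S100a4 and Maf, not named effector, had 19.4, 27.5 and 63.2 CPM, above the smaller effector T-like cluster.

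Cycling-like cells of TdLN (342 cells, named for Mki67, Top2a and other cell cycle genes) were compared with the other 5743 T cells there. Of the solute carrier genes 3 were at least 2-fold higher, against 8.72% of all genes, and 7 at least 2-fold lower, against 4.81%. Slc25a5 was at 863 against 377 CPM, a ratio of 2.29 [2.23–2.35]. Slc29a1 was at 41.7 against 17.9 CPM, a ratio of 2.33 [2.07–2.61], and Slc36a3os at 32.0 against 9.50 CPM. These are an ADP/ATP exchanger, a nucleoside carrier and a gene that is no transporter. The first 2 fell under 2-fold when totals left out ribosomal protein and mitochondrial genes.

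Slc25a3 was also higher in cycling-like cells, at 679 against 427 CPM and 1.59 times the others. The mitochondrial carriers together took 2244 against 1379 CPM, with 17 of 28 above 1. Slc25a3, Slc25a4 and Slc25a5 made up 1852 against 999 CPM of that, and the other 25 genes 393 against 380.1 CPM. Slc25a36 was among the 11 below 1, with 25.01 against 52.9 CPM and a ratio of 0.473 [0.413–0.539]. Slc38a2 was lower as well, with 121 against 208 CPM. The other genes at least 2-fold lower were Slc15a2, Slc16a5, Slc17a9, Slc26a11, Slc30a1 and Slc41a1, at ratios from 0.292 (Slc16a5) to 0.496 (Slc30a1).

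The interferon-responding-like cells of TdLN (549 cells) had 1 solute carrier gene at least 2-fold higher, against 1.53% of all genes, and 0 lower, against 1.96%. This was Slc25a22, a mitochondrial glutamate carrier, with 14.5 against 7.18 CPM and a ratio of 2.02 [1.58–2.56]. The precursor exhausted-like cells of TdLN (783 cells) were named for raised Tcf7, Slamf6, Tox, Id3, Cd200, Ikzf2, Izumo1r and Myb. Pdcd1, Xcl1, Cxcr5 and Tnfrsf4, on the same marker list, were not among the raised genes. Izumo1r, Cd200, Ctla4 and Ikzf2 led the cluster. These cells had 0 solute carrier genes higher, against 0.761% of all genes, and 0 lower, against 3.21%. Their median log2 ratio was 0.08, beside 0.06 over all genes. Among genes at 20 CPM or more, Slc29a1 had the lowest ratio, 0.650, with 14.5 against 22.3 CPM. Both states thus had few genes past 2-fold among solute carriers, as among all genes.

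A further cluster of PBMC and one of memory were examined. The PBMC cluster (816 cells) had S100a4 and Maf among its leading genes, beside the gamma chain genes Trgv2 and Tcrg-C2, so no cell type name is given. It had 5 genes at least 2-fold higher, against 1.98% of all genes, and 1 lower, against 2.68%. Slc25a33 was at 35.9 against 12.1 CPM there, a ratio of 2.96 [2.505–3.497]. Slc2a1 was at 17.9 against 8.57 CPM, and Slc27a4, a fatty acid carrier, at 11.8 against 4.36 CPM. Slc25a24 and Slc4a7 each had a ratio of 2.16. In the memory library the cluster led by P2rx7 and Hic1 (90 cells, resident T-like) had 8 genes higher, against 8.0% of all genes, and 6 lower, against 5.33%. Slc39a6, a zinc importer, was at 41.9 against 12.5 CPM there, a ratio of 3.36 [2.16–4.99], and Slc2a3 at 41.9 against 15.2 CPM, a ratio of 2.76 [1.78–4.10]. The other genes past 2-fold in that cluster rested on 20 counts or fewer in it.

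**Figure D3:**
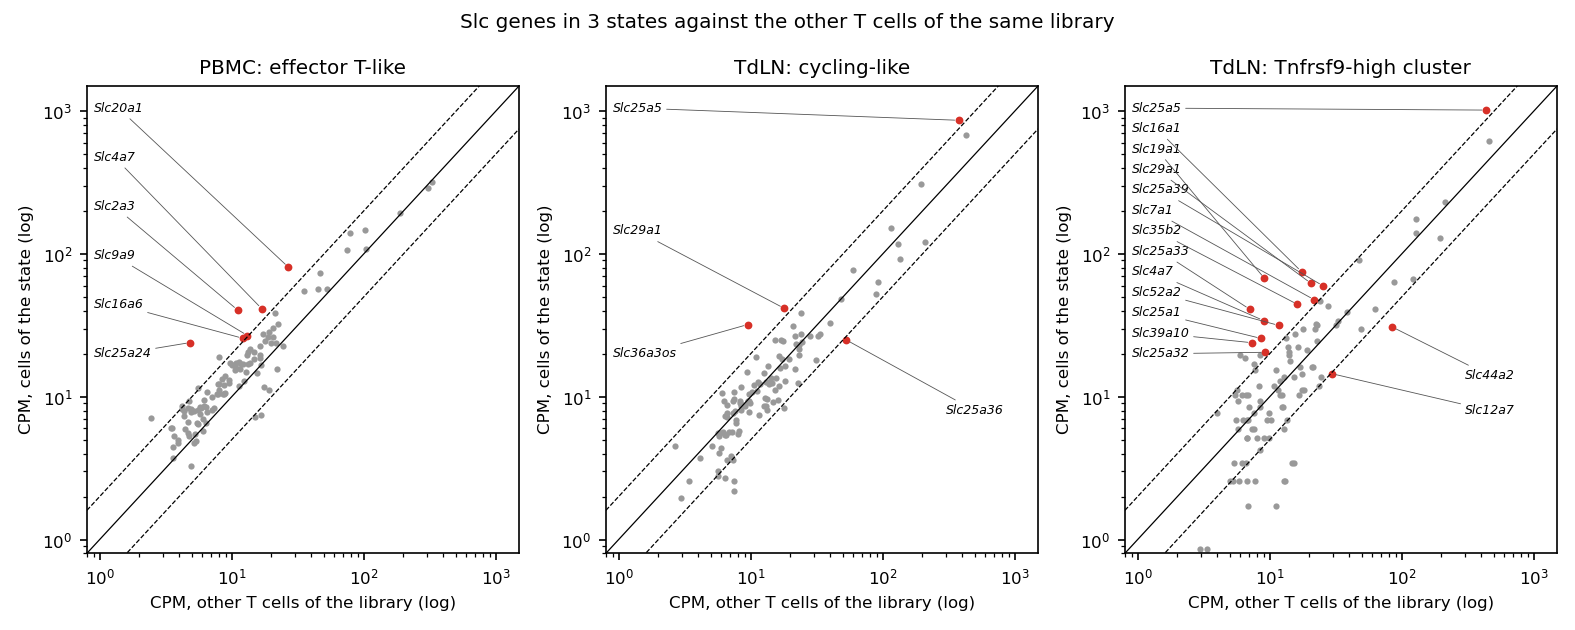
Each panel plots the level of every solute carrier gene in a T cell state (vertical axis, CPM) against its level in the other T cells of the same library (horizontal axis, CPM), both logarithmic. Red points reach 20 CPM on the higher side and differ by at least 2-fold; Slc25a24, Slc2a3, Slc20a1 and Slc4a7 stand out in PBMC (effector T-like cells), and Slc19a1, Slc25a33 and Slc16a1 in the TdLN cluster led by Tnfrsf9. Genes near or at 0 CPM are not drawn.

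A cluster of 64 TdLN cells was led by Tnfrsf9, Irf8 and Xcl1, with Nr4a1 and Myc raised as well, genes known to be switched on by receptor triggering. Compared with the other 6021 T cells of TdLN, 18 of 116 genes were at least 2-fold higher, against 11.5% of all genes, and 17 at least 2-fold lower, against 14.8%. Both shares were near the background, and the median log2 ratio was 0.02 beside -0.03 over all genes. Restricted to genes at 20 CPM on the higher side, 13 were higher and 2 lower. The shares of all genes at this cut were not computed, so these counts have no background beside them. Its cells had a median of 17023 counts, against 9721 in the others. Doublets had not been removed, and their part in this cluster was not tested.

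Slc19a1, the folate importer, had the highest ratio, with 67.4 CPM against 9.13 CPM (7.38 [5.77–9.34], from 79 counts in the cluster). Slc25a33, the pyrimidine nucleotide carrier, was at 41.0 against 7.07 CPM, a ratio of 5.79 [4.21–7.81]. Slc16a1, the lactate carrier, was at 75.1 against 17.4 CPM, a ratio of 4.31 [3.43–5.35]. These 3 genes serve folate, nucleotide and lactate transport. Slc29a1 was at 62.3 against 20.5 CPM, and Slc25a1, the citrate carrier, at 25.6 against 8.61 CPM. Slc25a32, the mitochondrial folate carrier, was at 20.5 against 9.28 CPM. Slc25a5 reached 1017 CPM against 435 CPM, its highest level of any T cell cluster here.

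Among amino acid carriers, Slc7a1 was at 47.8 against 21.8 CPM and Slc1a5 at 90.5 against 47.5 CPM, the latter just under 2-fold at 1.91. Slc7a5, below the threshold of the library sums, was at 17.9 against 3.08 CPM, a ratio of 5.81 [3.52–9.12]. The class sum was 677 against 612 CPM, so that most of its counts did not follow Slc7a1. The remaining higher genes at 20 CPM were Slc4a7 (34.1 against 9.01 CPM), Slc39a10 (23.9 against 7.34 CPM), Slc35b2 (44.4 against 16.2 CPM), Slc52a2 (31.6 against 11.7 CPM) and Slc25a39 (59.7 against 25.4 CPM). They carry bicarbonate, zinc, PAPS, riboflavin and glutathione. Slc44a2 was the clearest lower gene, with 30.7 against 85.2 CPM and a ratio of 0.361 [0.252–0.5001]. Slc12a7 was at 14.5 against 29.5 CPM.

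Upstream sequences are shown for 4 genes of this cluster, because Slc19a1, Slc25a33 and Slc16a1 had its highest ratios and because all promoters with the canonical E-box, CACGTG, among its 13 higher genes are then included. CACGTG is a palindrome, read alike on both strands, and is the sequence that Myc and related factors are known to bind. Each is the run of 250 bases before the start site listed first for the gene in the RefSeq promoter table (GRCm38.p6). It is read 5' to 3' on the strand of the gene, with CACGTG in capitals. By the gene coordinates given above, which are from GENCODE, the Slc19a1 window lies inside the gene, past its start. The last bases of the Slc25a33 window, with its CACGTG, also lie inside the gene. Slc19a1 is chr10:77032489-77032738 (plus strand) and has none, Slc25a33 is chr4:149774268-149774517 (minus strand), Slc16a1 is chr3:104638414-104638663 (plus strand) and Slc25a1 is chr16:17928220-17928469 (minus strand).
Slc19a1: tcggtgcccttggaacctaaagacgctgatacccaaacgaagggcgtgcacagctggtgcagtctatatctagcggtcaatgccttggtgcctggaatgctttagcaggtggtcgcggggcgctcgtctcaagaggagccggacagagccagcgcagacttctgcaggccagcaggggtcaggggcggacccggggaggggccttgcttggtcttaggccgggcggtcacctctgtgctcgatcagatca
Slc25a33: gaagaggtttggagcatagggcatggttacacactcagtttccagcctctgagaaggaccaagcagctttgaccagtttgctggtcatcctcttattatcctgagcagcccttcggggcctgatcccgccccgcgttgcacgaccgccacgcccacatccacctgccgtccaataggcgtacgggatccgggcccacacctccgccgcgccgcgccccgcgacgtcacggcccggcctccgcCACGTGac
Slc16a1: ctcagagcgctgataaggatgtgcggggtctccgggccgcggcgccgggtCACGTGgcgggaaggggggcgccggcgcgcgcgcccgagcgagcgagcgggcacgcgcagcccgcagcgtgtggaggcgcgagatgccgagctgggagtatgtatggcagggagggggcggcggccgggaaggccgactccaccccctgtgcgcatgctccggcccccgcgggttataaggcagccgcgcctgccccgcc
Slc25a1: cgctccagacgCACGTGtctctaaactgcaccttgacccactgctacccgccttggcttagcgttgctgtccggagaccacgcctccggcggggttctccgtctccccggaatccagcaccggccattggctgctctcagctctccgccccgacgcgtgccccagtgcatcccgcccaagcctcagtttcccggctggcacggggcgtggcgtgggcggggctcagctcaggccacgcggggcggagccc

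The match begins 8 bases before the start site in Slc25a33, 200 before it in Slc16a1 and 239 before it in Slc25a1. In the windows from 250 bases before to 50 after the start, 3 of the 11 higher genes with an entry in the table held CACGTG (27.3%). The share was 14.8% of the 88 solute carrier genes with an entry, 11.03% of 6774 genes compared and 7.24% of all 27025 genes in the table. The AP-1 site, TGACTCA or TGAGTCA on its other strand, was in 1 of the 11 (9.09%; Slc7a1), in 1.14% of the solute carrier genes and in 3.14% of the genes compared. A TCF site, CTTTGAT or ATCAAAG, was in 0 of the 11, in 4.55% of the solute carrier genes and in 2.55% of the genes compared. A match is a description of the letters in the window and not a site of binding.

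**Figure D4:**
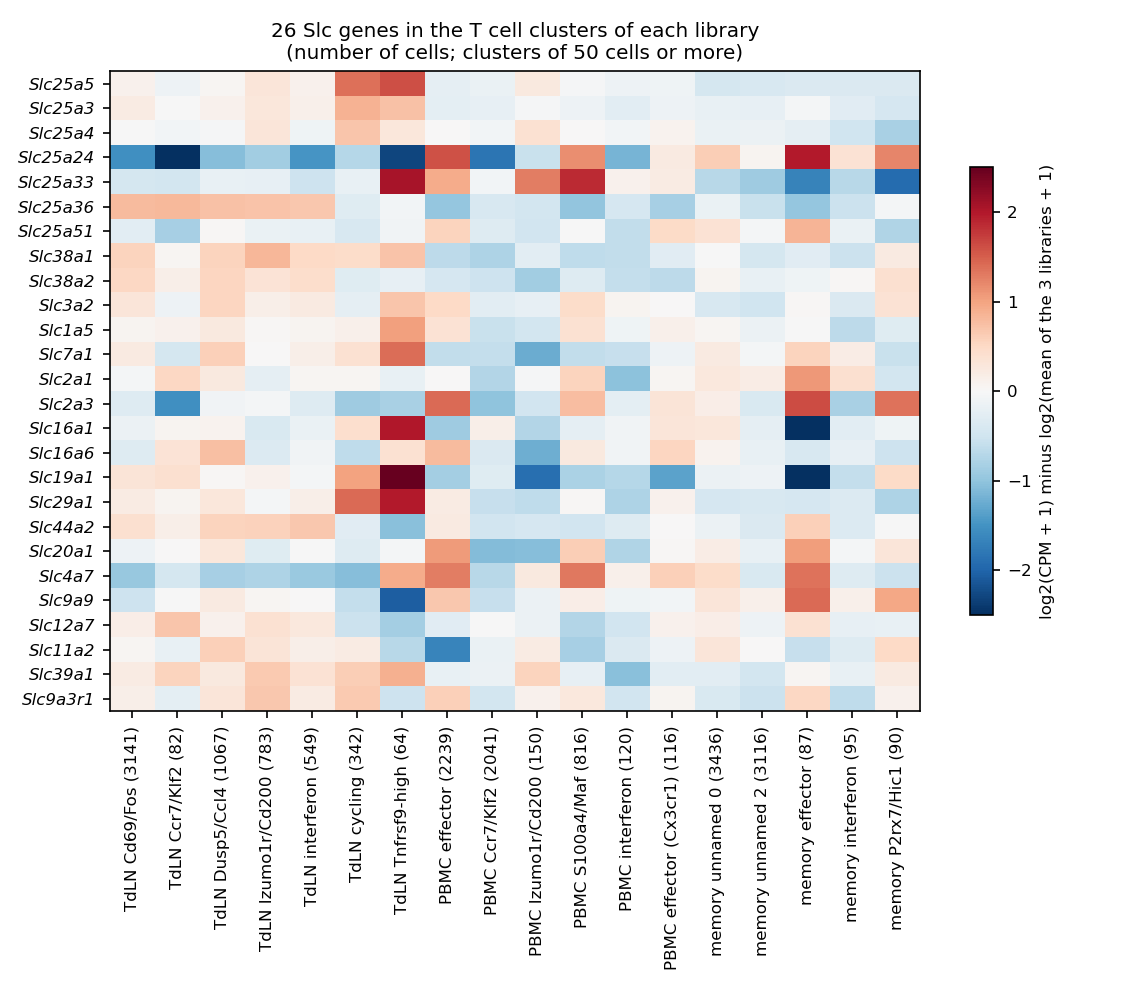
The heat map shows 26 solute carrier genes (rows) in each T cell cluster (columns), coloured by log2(CPM + 1) in the cluster minus log2 of the mean CPM of the 3 libraries plus 1. Slc25a24, Slc2a3 and Slc20a1 are raised in the larger effector T-like cluster in both PBMC and memory, Slc25a36 is raised in most TdLN clusters but not in the cycling-like cells, and Slc19a1 is raised mainly in the Tnfrsf9-led cluster.

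Some genes followed the library across its clusters and others followed the cluster. Slc25a36 lay between 49.98 and 55.4 CPM in the T cell clusters of TdLN with at least 50 cells, apart from the cycling-like cells (25.01 CPM) and the Tnfrsf9-led cells (29.9 CPM). Slc38a1 lay between 49.9 and 71.0 CPM in the PBMC clusters and between 88.6 and 153 CPM in the T cell clusters of TdLN, with no overlap. Its T cell clusters of memory ran from 58.3 to 101 CPM and overlapped both ranges. How many of all genes lacked overlap between PBMC and TdLN was not counted. Slc25a24, in contrast, ran from 1.55 to 26.2 CPM between clusters of PBMC, Slc4a7 from 10.4 to 45.1 CPM and Slc25a33 from 8.60 to 35.9 CPM. These 5 genes were picked to show both patterns, and the others were not counted by pattern.

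Genes that work with solute carriers were examined as lists. Of 26 transporters under other symbols, 23 were compared, and 1 was at least 2-fold higher in TdLN over memory, against 5.48% of all genes. This was Mfsd10, with 30.6 CPM in TdLN, 19.2 CPM in PBMC and 15.2 CPM in memory. 0 passed 2-fold in the other library comparisons. Of all genes, 3.24% were higher and 1.63% lower in PBMC over memory, and 4.18% and 2.67% in TdLN over PBMC. Of 33 partners and regulators of carriers, 30 were compared. In TdLN over memory 3 were higher and 0 lower, against 5.48% and 3.12% of all genes. These were Atp1b1, Tfrc and Hk2. Tfrc, the transferrin receptor, was at 16.1 against 5.23 CPM. Hk2, the hexokinase that traps imported glucose, was at 8.35 against 2.27 CPM. In PBMC over memory 3 were higher and 1 lower, against 3.24% and 1.63% of all genes. In TdLN over PBMC 1 was higher and 3 lower, against 4.18% and 2.67%. Myc was the higher one, with 54.7 against 21.8 CPM, and Txnip, an inhibitor of glucose uptake, was among the lower ones, with 188 against 508 CPM.

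Atp1b1, a beta subunit of the sodium and potassium pump that maintains the gradient many carriers use, had the widest range. It was at 16.4 CPM in TdLN, 10.9 CPM in PBMC and 0.0718 CPM in memory, where it rested on 5 counts, and TdLN was at 229 [97.7–706] times memory. Within PBMC, the effector T-like cells were at a ratio of 0.113 [0.0700–0.173] to the others, so that Atp1b1 was low in them too.

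In the Tnfrsf9-led cells 4 of 30 partners were higher and 3 lower, near the shares of 11.5% and 14.8% over all genes. Hk2 was at 59.7 against 7.46 CPM, a ratio of 8.01 [6.15–10.3]. Tfrc was at 68.3 against 15.2 CPM, and Ldha, the lactate dehydrogenase subunit, at 998 against 355 CPM. Txnip was lower, at 43.5 against 191 CPM. Myc, at 157 against 52.9 CPM, is among the markers of recent activation by which clusters were named, and all of these genes could enter the clustering.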

How the data were processed

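The authors deposited raw UMI counts (whole numbers, with no normalization) for each gene in each barcode, made with Cell Ranger 3.1.0 on mm10, per the submitters' processing notes; the barcodes (7503 TdLN, 6165 PBMC and 8321 memory) had been called as cells. Cells under 500 genes or over 10% mitochondrial counts were dropped, which left 6265, 5652 and 7003. They were clustered together from log values of counts per 10000, with 2000 variable genes (no Slc, receptor, ribosomal or mitochondrial genes), 30 principal components, 15 neighbours and Leiden resolution 0.8 (Python 3.11.15, scikit-learn 1.9.0, leidenalg 0.10.2). A cluster was named where at least 3 markers and 33.3% of those measured were at least 1.5-fold above the other cells. Doublets were not removed and no caller was run. B-like and macrophage-like clusters were left out.

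Within each library or state, the counts of all T cells were added up and expressed as CPM, with exact Poisson 95% intervals, and ratios have exact conditional binomial (Clopper-Pearson) 95% intervals (scipy 1.17.1). The upper limit for a count of 0 (3 counts) was 0.0437 CPM for TdLN, 0.0613 CPM for PBMC and 0.0431 CPM for memory. All 8539 genes at 5 CPM or more in a library were compared, a ratio of 2-fold either way was counted, and no p-value is given. The calculation was tested on simulated data. Coordinates come from GENCODE M21 (GRCm38), where all 116 genes were found.

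The genes, lists, classes and states were chosen with earlier results of these data known. 4 genes with Slc symbols were moved to a class of non-transporters, and the states other than cycling, interferon-responding and effector were chosen, after values were seen. Named genes are those with the 8 highest and 8 lowest ratios per library comparison and the 4 highest and 4 lowest per state, at 20 CPM or more, the 15 most abundant, a panel, and 3 genes on each side of the threshold; 1 gene this rule selects is not reported here. Others, among them Slc16a5, Slc15a2, Slc14a1, Slc25a22, Slc31a2, Slc39a13, Slc43a2 and the lower-ranked genes of the Tnfrsf9-led cluster, were named after their values were seen. Alternatives used TMM factors (edgeR 4.0.16), other filters, thresholds, cell sets and clusterings, and 1, chosen after seeing the data, kept only T cells whose beta chain V counts were all Trbv13-3.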

Additional observations from a re-analysis of the deposited data

How the results depend on the processing

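Of 110 recomputed counts of genes past 2-fold, 71 stayed within 1.5 times the reported count and 39 did not. They cover the library comparisons and the cycling, interferon-responding and effector T-like states. The other states, among them the Tnfrsf9-led cells, were not recomputed. With genes at 20 CPM or more alone, counts were 1 higher and 1 lower (TdLN over memory), 0 higher (PBMC over memory), next 2 higher and 1 lower (TdLN over PBMC), then 1 lower in cycling-like cells, 0 higher in interferon-responding-like cells, and 3 higher and 1 lower in effector T-like cells. At 1.5-fold they were 24 and 5 (TdLN over memory), 8 each way (PBMC over memory), then 20 and 8 (TdLN over PBMC), 11 and 20 (cycling), 2 and 4 (interferon) and 38 and 5 (effector). Shares of all genes were not computed at either of these thresholds, so these counts have no background beside them. Slc31a2 and Slc4a7 lie close to 2-fold, so that 1 gene was lower in TdLN over memory with all cells, with cells weighted equally, without the 5% of cells with most counts, and without cycling-like clusters. Of all genes, 2.95%, 3.02%, 2.89% and 2.96% were lower in these settings. Without effector T-like clusters 2 were lower in PBMC over memory and 0 in TdLN over PBMC, beside 2.58% and 1.7% of all genes. TMM factors gave 4 lower in TdLN over PBMC and 4 higher in effector T-like cells, beside 3.22% and 3.33% of all genes. Equal weights gave 4 lower in TdLN over PBMC, beside 3.62% of all genes. Totals without ribosomal protein and mitochondrial genes gave 1 higher and 16 lower in cycling-like cells, beside 5.36% and 9.92% of all genes. In effector T-like cells they gave 4 higher and 6 lower, beside 3.04% and 7.0%. Resolution 0.5, and clustering each library alone, gave 0 higher in interferon-responding-like cells, beside 1.6% and 1.56% of all genes. With Trbv13-3 cells alone, 3 were lower in PBMC than in memory and 0 were lower in TdLN than in PBMC, beside 3.64% and 1.76% of all genes. In effector T-like cells 19 were higher, beside 9.78%, and Slc11a2 moved to a log2 ratio of 0.0830. The cause was not tested.

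Of 2021 ratios of named genes recomputed, 1501 stayed within their interval and 519 moved. Of the ratios past 2-fold, 1 changed sign (Slc11a2, to near no difference). Turns of ratios within 2-fold, such as those of Slc2a3 and Slc20a1 in TdLN over PBMC, are among the 519. Slc16a5, Slc15a2, Slc25a24 and Slc36a3os in TdLN over memory, Slc25a33 in PBMC over memory, and Slc38a1, Slc25a36 and Slc16a5 in TdLN over PBMC kept 2-fold in all 9 library settings compared at that threshold. No paired analysis was possible because each group has 1 library. In clusters of under 100 cells, genes near 5 CPM rest on few counts, and only large differences were detectable there.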
